A study of Homo sapiens with 6 samples.

Results

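The genes described here are 10 regulators and targets of the transcriptional coactivators YAP and TAZ, followed in HaCaT keratinocytes. They are defined by name and not by a threshold on their counts, and they were proposed with earlier results of these data known: *YAP1*, *WWTR1*, *TEAD1*, *TEAD3*, *TEAD4*, *LATS1*, *LATS2*, *CCN1*, *CCN2* and *AMOTL2*. All 10 had a row among the 12499 genes of the deposited count table, and all 10 passed the filter on low counts. HaCaT is an immortalized line of human keratinocytes. The cells were infected for 48 hours with a lentivirus that carried the *ATF7* coding sequence in the pLVX-IRES-Puro vector (LV-*ATF7*) or with the LV-NC control virus, and both groups then grew in high glucose (HG) medium for another 24 hours. Poly(A) RNA of 3 libraries per group was sequenced, 6 libraries in all, so no normal-glucose or uninfected cells enter the comparison. The sources used here do not state whether the 3 replicates were separate cultures, and p-values measure the spread between these libraries alone.

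In the Hippo pathway, a kinase cascade ends in the kinases LATS1 and LATS2, which phosphorylate YAP (encoded by *YAP1*) and TAZ (encoded by *WWTR1*) and keep them out of the nucleus. When the cascade is quiet, YAP and TAZ enter the nucleus and bind the TEAD factors, which bring them to DNA. *CCN1* and *CCN2*, which encode secreted matricellular proteins, and *AMOTL2*, which encodes an angiomotin that binds YAP in the cytoplasm, are commonly read as targets of this complex. *LATS2* is a target as well as a kinase of the pathway, so its protein feeds back on YAP and TAZ. In the epidermis the pathway is known for its part in the growth of basal keratinocytes and in wound repair.

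Total counts ran from 16686472 to 18287923 in the libraries labeled LV-NC and from 18666696 to 20562768 in those labeled LV-*ATF7*. *ATF7* itself was lower, not higher, in the libraries labeled LV-*ATF7* (25.2 ± 3.09 against 49.8 ± 2.98 CPM, SD, n = 3 each, adjusted p = 1.89e-04 by edgeR). No alternative fit changed this call or its direction, although 43.8% of its exon bases are shared with other annotated genes. The authors report *ATF7* overexpression with this virus in HaCaT cells, by qRT-PCR and Western blot. Every direction below therefore follows labels that the *ATF7* counts go against. LV-NC replicate 1 stood apart from LV-NC replicates 2 and 3, with a chi-square per gene of 76.2 and 68.4 against them, where the other pairs within a group gave 2.86 to 10.5. All 10 keratinocyte markers listed were found, at a summed 1030 to 1550 CPM in LV-NC and 6020 to 6620 CPM in LV-*ATF7*, a sum carried by *KRT5*, *ITGB4* and *SFN*. Of these markers 7 rose, whereas *KRT14* was lower (0.375 to 12.5 against 1.38 to 1.82 CPM, a call lost in 7 alternatives). *KRT6A* was at 1.285, 95.1 and 92.8 CPM in LV-NC replicates 1, 2 and 3 and 19.1 to 19.9 CPM in LV-*ATF7*. *KRT17* was at 2.89, 9.75 and 10.5 CPM in LV-NC and 3.52 to 5.31 CPM in LV-*ATF7*. Neither of these 2 genes passed, but both were called lower without LV-NC replicate 1 and in limma voom. Of 8 macrophage markers 3 were measured, at a summed 5.57 to 8.13 CPM in LV-NC and 9.38 to 12.7 CPM in LV-*ATF7*, and of 6 fibroblast markers 2 were measured, at 33.1 to 42.7 CPM and 17.3 to 21.7 CPM. These sums hide unlike members. From LV-NC to LV-*ATF7*, *CD14* rose from a mean of 1.61 to 8.17 CPM (adjusted p = 2.84e-05 by edgeR). *CSF1R* fell from 2.79 to 0.611 CPM (adjusted p = 3.90e-04), and *ITGAM* did not pass. *COL1A1* fell (adjusted p = 1.75e-04), and *DCN* did not pass. The other markers of these lists, *PTPRC* and *COL1A2* among them, were not analyzed here. The part of these markers and of LV-NC replicate 1 in the results was not tested, and in bulk RNA fewer cells of a type and less RNA per cell cannot be told apart.

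Sequence upstream of the genes is shown because TEAD factors bind a short motif, GGAATG, which can be read in these letters. RefSeq promoter windows (GRCh38.p14) matched 7 of the 10 genes. *CCN1*, *TEAD1* and *TEAD4* had no window and were not searched. The motif was searched on both strands in the 250 bases before each start, where 11.9% of 35116 windows held it at least once, 0.94% held it at least 2 times and 0.0826% at least 3 times. The window of *CCN2*, which fell most of the 10 genes, held 3 copies, which begin 169, 104 and 95 bases before the start. *AMOTL2* held 1 copy, on the opposite strand, in 1 of its windows, and *YAP1* held 1 copy 162 bases before its start. *ANKRD1*, which encodes a cardiac ankyrin repeat protein and is another target that fell, held 2, as did *NUAK2*, a target that rose (log2 fold change 0.87, adjusted p = 2.61e-04 by edgeR; named after its values were seen). No window of *WWTR1*, *TEAD3*, *LATS1* or *LATS2* held these letters. The sequences below run 5′ to 3′ on the strand of the gene and end at the base before its start, and capitals mark the motif or, for *AMOTL2*, its reverse complement.

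CCN2, chr6:131951373-131951622, minus strand: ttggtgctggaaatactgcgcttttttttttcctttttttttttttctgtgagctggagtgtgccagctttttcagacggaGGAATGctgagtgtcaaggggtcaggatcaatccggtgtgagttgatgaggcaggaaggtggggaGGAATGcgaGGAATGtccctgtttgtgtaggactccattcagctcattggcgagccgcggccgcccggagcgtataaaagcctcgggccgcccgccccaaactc
ANKRD1, chr10:90921088-90921337, minus strand: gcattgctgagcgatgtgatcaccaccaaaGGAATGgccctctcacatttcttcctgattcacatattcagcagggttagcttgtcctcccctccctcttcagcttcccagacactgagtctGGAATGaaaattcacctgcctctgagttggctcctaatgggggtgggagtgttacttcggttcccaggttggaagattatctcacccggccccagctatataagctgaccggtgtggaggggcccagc
AMOTL2, chr3:134374448-134374697, minus strand: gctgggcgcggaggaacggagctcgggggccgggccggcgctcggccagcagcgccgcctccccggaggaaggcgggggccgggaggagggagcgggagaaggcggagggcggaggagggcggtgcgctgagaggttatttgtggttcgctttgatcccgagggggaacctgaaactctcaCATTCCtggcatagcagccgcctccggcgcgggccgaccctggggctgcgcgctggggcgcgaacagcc

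The letters are a description of these windows and do not show that a TEAD factor was bound there. The cyclic AMP response element TGACGTCA, a motif of the ATF family, was in none of the 10 windows of the 7 matched genes and in 1.65% of all windows.

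The comparison of LV-*ATF7* with LV-NC asks which genes differ with the *ATF7* virus under HG. By the quasi-likelihood test of edgeR, 7 of the 10 genes differed, where 67.6% of all genes tested did (threshold 0.05 on p-values adjusted by the method of Benjamini and Hochberg over 12462 genes). *YAP1* and *TEAD3* rose in LV-*ATF7*, which is 2 of 10 against 34.7% of all genes called higher. *TEAD1*, *LATS2*, *CCN1*, *CCN2* and *AMOTL2* fell, which is 5 of 10 against 32.9% of all genes called lower. *WWTR1*, *TEAD4* and *LATS1* did not pass the test. The groups did not overlap for 7 of the 10 genes and for 72.7% of all genes tested, and 5 of the 10 also differed by a fold of at least 1.5, against 52.9% of all genes. The share of these genes that differed was therefore near that of all genes. Their median log2 fold change was -0.42 and their median size of change was 0.66 on the log2 scale, against 0.67 for all genes tested.

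**Figure D1:**
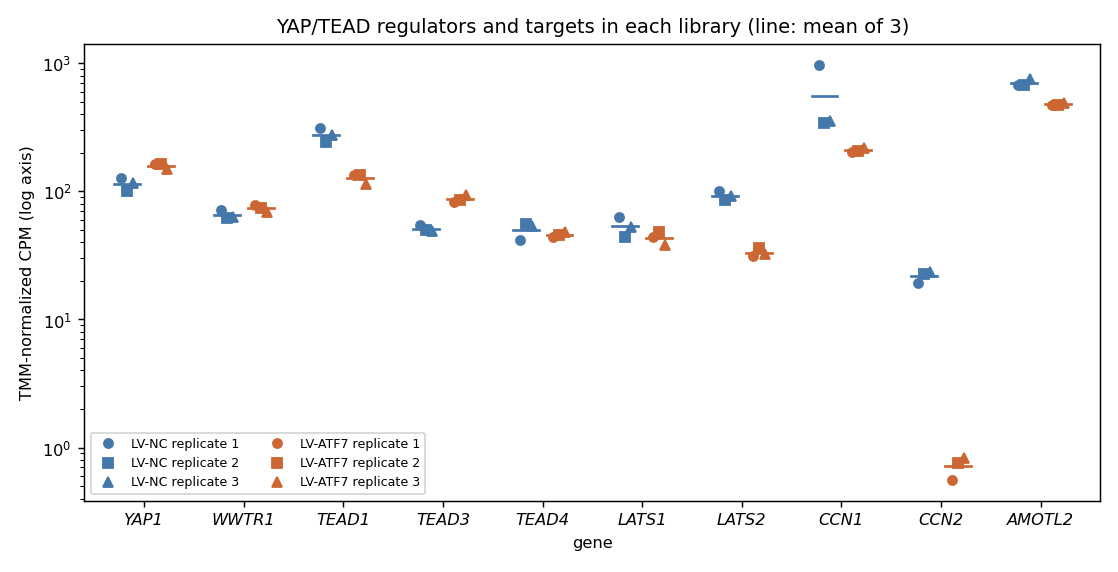
TMM-normalized CPM (log axis) of the 10 genes in each of the 6 libraries, with a marker for each replicate number and a line at the mean of 3 libraries. The LV-*ATF7* libraries lie between 0.558 and 0.829 CPM for *CCN2*, far below the LV-NC libraries, and LV-NC replicate 1 lies at 972.7 CPM for *CCN1*, above its fellow replicates.

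*YAP1* (ENSG00000137693, chr11:102110461-102233423, plus strand, GRCh38) encodes YAP, the coactivator itself. Its normalized expression was 126.6, 100.8 and 116.3 CPM in LV-NC replicates 1, 2 and 3 and 163.3, 164.5 and 148.5 CPM in LV-*ATF7*. Every library labeled LV-*ATF7* lay above every library labeled LV-NC. *YAP1* rose by 0.47 on the log2 scale (standard error (SE) 0.11, adjusted p = 0.00511 by edgeR), or 1.39-fold. The rise was 0.30 (adjusted p = 0.0540) when libraries were scaled by total count alone, and 9.97% of its exon bases lie opposite an antisense gene.

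*WWTR1* (ENSG00000018408, chr3:149517235-149736714, minus strand) encodes TAZ, the paralog of YAP. It was at 71.2, 61.8 and 62.9 CPM in LV-NC and 77.8, 74.3 and 68.6 CPM in LV-*ATF7*, so that LV-NC replicate 1 lay within the range of LV-*ATF7*. Its log2 fold change of 0.17 did not pass the test (95% confidence interval -0.06 to 0.40, adjusted p = 0.162 by edgeR), and 9.45% of its exon bases lie opposite an antisense gene. Without LV-NC replicate 1 it was 0.22 with an adjusted p of 0.0217 by the same test. With libraries scaled by total count alone it was 0.0064 (adjusted p = 0.964 by the same test). Within a library, the log2 ratio of *WWTR1* to *YAP1* counts was -0.81 ± 0.09 (SD, n = 3) in LV-NC and -1.11 ± 0.04 (SD, n = 3) in LV-*ATF7*. This ratio needs no scaling between libraries, and it differed by -0.30 with no library in the range of the other group (p = 0.1 in a two-sided exact permutation test, which is the lowest p that 3 against 3 libraries allow).

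The TEAD factors carry the DNA-binding domain to which YAP and TAZ attach, and the members of the family moved in different directions. *TEAD1* (ENSG00000187079, chr11:12674591-12944483, plus strand) was at 311.6, 244.4 and 273.6 CPM in LV-NC and 133.4, 133.0 and 113.5 CPM in LV-*ATF7*. All 3 LV-*ATF7* libraries lay far below the lowest LV-NC library. *TEAD1* fell by 1.13 on the log2 scale (SE 0.12, adjusted p = 9.04e-05 by edgeR), or 2.18-fold.

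*TEAD3* (ENSG00000007866, chr6:35473597-35497076, minus strand) moved the opposite way. It was at 54.8, 50.1 and 48.6 CPM in LV-NC and 83.2, 85.4 and 93.1 CPM in LV-*ATF7*, with no overlap. It rose by 0.77 on the log2 scale (SE 0.10, adjusted p = 2.09e-04 by edgeR), or 1.71-fold.

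*TEAD4* (ENSG00000197905, chr12:2959330-3040673, plus strand) was at 41.9, 55.3 and 53.8 CPM in LV-NC and 43.9, 45.2 and 47.8 CPM in LV-*ATF7*. LV-NC replicate 1 lay below all LV-*ATF7* libraries, and LV-NC replicates 2 and 3 lay above them. The log2 fold change of -0.14 did not pass the test (95% confidence interval -0.43 to 0.15, adjusted p = 0.344 by edgeR). Without LV-NC replicate 1, *TEAD4* was at -0.28 and passed (adjusted p = 0.00463 by the same test), and scaling by total count alone gave -0.30 (adjusted p = 0.0404).

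*TEAD2*, the member of the family outside the 10 genes, was measured as part of the pathway lists. It rose from 1.63 ± 0.13 to 12.2 ± 1.005 CPM (SD, n = 3 each), a log2 fold change of 2.90 (SE 0.17, adjusted p = 5.44e-06 by edgeR), with counts of 27 to 34 per LV-NC library and 218 to 240 per LV-*ATF7* library. It shares 10.7% of its exon bases with a gene on the opposite strand.

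Levels of the TEAD genes were compared per length, as counts per kb of annotated exon counted once. On this scale *TEAD1* made up 45.1%, 36.5% and 39.8% of the TEAD family in LV-NC and 20.4%, 20.01% and 16.5% in LV-*ATF7*. *TEAD3* made up 26.7%, 25.2% and 23.9% in LV-NC and 42.9%, 43.4% and 45.5% in LV-*ATF7*. On this scale *TEAD4* led in LV-NC replicate 2, *TEAD1* in LV-NC replicates 1 and 3, and *TEAD3* in each LV-*ATF7* library, whereas by the deposited FPKM *TEAD1* led in all 3 LV-NC libraries. The share of *TEAD2* went from 0.826 ± 0.080% to 6.30 ± 0.41% (SD, n = 3 each), and that of *TEAD4* was 33.4 ± 5.28% and 30.8 ± 0.51%. The difference for *TEAD4*, -2.57 percentage points, ran from -5.57 without LV-NC replicate 1, where the groups no longer overlapped, to -0.60 without LV-NC replicate 2, and was -1.54 without LV-NC replicate 3. For *TEAD1*, *TEAD2* and *TEAD3* the shares did not overlap between groups (p = 0.1 for each in a two-sided exact permutation test, again the lowest possible, and p = 0.4 for *TEAD4*, not adjusted over the 4 shares). The summed level of the 4 genes, a description computed after the shares were seen, was 67.2, 65.1 and 66.8 CPM per kb in LV-NC and 63.7, 64.7 and 67.1 CPM per kb in LV-*ATF7*. These sums overlapped between the groups under TMM scaling, whose factors were 1.035 to 1.098 in LV-NC and 0.921 to 0.960 in LV-*ATF7*. Multiplying each sum by its factor, which returns to scaling by total count, puts every LV-NC sum above every LV-*ATF7* sum. The TEAD family therefore differed in its makeup, and whether its summed level differed depended on the scaling.

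**Figure D2:**
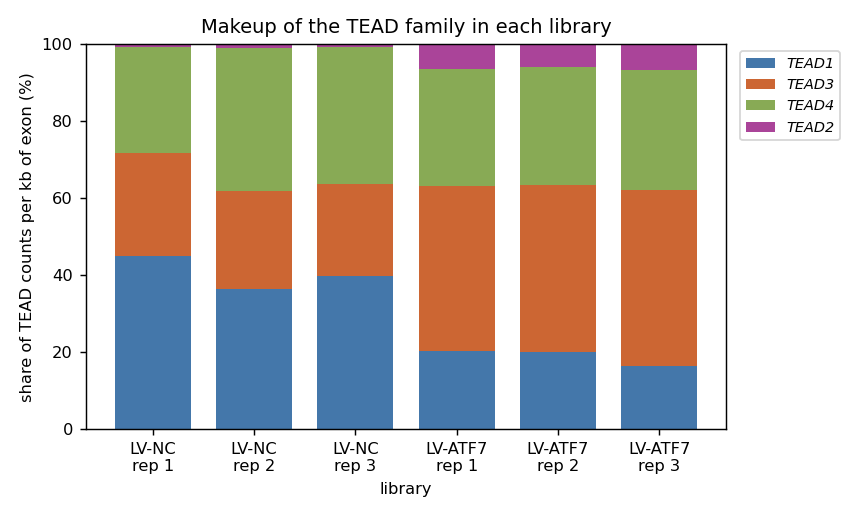
Share of each TEAD gene in the counts per kb of exon of the 4 TEAD genes, in percent, with a stacked bar for each of the 6 libraries. *TEAD1* takes 36.5% to 45.1% of the LV-NC bars and 16.5% to 20.4% of the LV-*ATF7* bars, and *TEAD3* takes 23.9% to 26.7% and 42.9% to 45.5%.

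The LATS kinases, which restrain YAP and TAZ, differed from each other. *LATS1* (ENSG00000131023, chr6:149658153-149718256, minus strand) was at 63.6, 43.8 and 52.7 CPM in LV-NC and 43.9, 48.4 and 38.3 CPM in LV-*ATF7*, and the groups overlapped. Its log2 fold change of -0.29 did not pass the test (95% confidence interval -0.65 to 0.06, adjusted p = 0.126 by edgeR). It passed at -0.45 without LV-NC replicate 2 (adjusted p = 0.0378) and at -0.46 with libraries scaled by total count alone (adjusted p = 0.0448), and an antisense gene covers 4.72% of its exon bases.

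*LATS2* (ENSG00000150457, chr13:20973032-21061547, minus strand) was at 100.01, 85.1 and 91.6 CPM in LV-NC and 31.0, 36.1 and 32.5 CPM in LV-*ATF7*. The groups were well apart, with a coefficient of variation of 8.09% and 7.90% within them. *LATS2* fell by 1.47 on the log2 scale (SE 0.11, adjusted p = 1.43e-05 by edgeR), or 2.77-fold.

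The log2 ratio of *LATS2* to *LATS1* counts within a library was 0.80 ± 0.15 (SD, n = 3) in LV-NC and -0.39 ± 0.14 (SD, n = 3) in LV-*ATF7*. *LATS2* had the larger count in all 3 LV-NC libraries and the smaller count in all 3 LV-*ATF7* libraries. The difference was -1.19 (p = 0.1 in the same exact permutation test, the lowest possible).

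All 3 classical targets were lower in LV-*ATF7*, by very different amounts. *CCN2* (ENSG00000118523, chr6:131948176-131951373, minus strand; *CTGF* in older annotation) was at 19.3, 22.5 and 23.6 CPM in LV-NC and 0.558, 0.765 and 0.829 CPM in LV-*ATF7*. These values rest on 361, 429 and 408 counts against 10, 15 and 15 counts, so the LV-*ATF7* level was low but above 3 counts in every library. *CCN2* fell by 4.91 on the log2 scale (SE 0.20, adjusted p = 1.39e-06 by edgeR), or 30.1-fold. It ranked 44 of 12462 genes tested when ordered from the largest fall, and its promoter window is the sequence with 3 motifs printed above. An antisense gene lies opposite 8.34% of its exon bases, and strandedness of the counting is not given in the sources used here.

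*CCN1* (ENSG00000142871, chr1:85580761-85583962, plus strand; *CYR61* in older annotation) was at 972.7, 341.0 and 353.3 CPM in LV-NC and 202.8, 207.6 and 216.4 CPM in LV-*ATF7*. LV-NC replicate 1 was 2.80-fold above the mean of LV-NC replicates 2 and 3, whereas the LV-*ATF7* libraries had a coefficient of variation of 3.30%. *CCN1* fell by 1.41 on the log2 scale (SE 0.38, adjusted p = 0.0113 by edgeR), or 2.66-fold. Without LV-NC replicate 1 it fell by 0.75 (SE 0.06, adjusted p = 1.01e-10), or 1.69-fold, and without LV-*ATF7* replicate 3 it did not pass (log2 fold change -1.44, adjusted p = 0.0522).

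*AMOTL2* (ENSG00000114019, chr3:134355874-134375479, minus strand) was at 670.4, 678.5 and 752.8 CPM in LV-NC and 471.6, 470.9 and 489.7 CPM in LV-*ATF7*, with no overlap. It fell by 0.55 on the log2 scale (SE 0.09, adjusted p = 0.00104 by edgeR), or 1.47-fold. A ribosomal protein pseudogene on the same strand covers 3.12% of its exon bases.

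Within a library, the log2 ratio of *CCN1* to *CCN2* counts was 5.65, 3.92 and 3.90 in LV-NC and 8.43, 8.04 and 7.98 in LV-*ATF7*. *CCN1* exceeded *CCN2* in every library, and the excess was larger in each LV-*ATF7* library than in any LV-NC library. The mean difference was 3.66 on the log2 scale (p = 0.1 in the same exact permutation test, the lowest possible), or 2.93 when 10 counts rather than 0.5 were added to each gene.

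**Figure D3:**
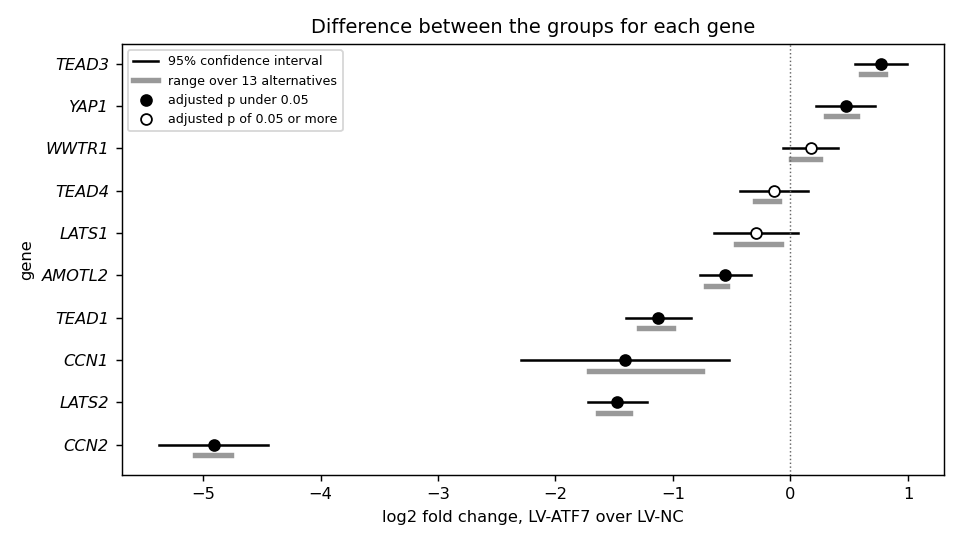
Log2 fold change (LV-*ATF7* relative to LV-NC) for each of the 10 genes, ordered from the highest, with its 95% confidence interval (black line) and its range over 13 alternative fits (gray line); filled points have an adjusted p under 0.05. The gray line of *CCN2* runs from -5.07 to -4.76 and that of *CCN1* from -1.71 to -0.75.

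Ordered by CPM per kb of exon, the LV-NC means were 226.3 for *CCN1*, 117.1 for *AMOTL2*, 26.9 for *TEAD1*, 22.1 for *TEAD4*, 18.2 for *YAP1*, 16.8 for *TEAD3*, 16.5 for *LATS2*, 9.33 for *CCN2*, 7.76 for *WWTR1* and 6.17 for *LATS1*. The library ranges of neighbors overlapped from *TEAD1* to *LATS2* and from *CCN2* to *LATS1*, so the order within these stretches is not resolved. In LV-*ATF7* the same scale gave 85.1 for *CCN1*, 79.8 for *AMOTL2*, 28.6 for *TEAD3*, 25.2 for *YAP1*, 20.1 for *TEAD4*, 12.3 for *TEAD1*, 8.74 for *WWTR1*, 5.96 for *LATS2*, 5.04 for *LATS1* and 0.307 for *CCN2*. There, of the neighbors in the order, only *LATS2* and *LATS1* had overlapping ranges. *CCN2* was thus last of the 10 in LV-*ATF7*. In LV-NC its range (8.26 to 10.1) overlapped that of *WWTR1* (7.35 to 8.46) and lay above that of *LATS1* (5.06 to 7.36).

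Other targets of YAP and TAZ did not follow the 3 classical ones as a group. Of 18 listed genes 17 were measured, and 9 rose, 5 fell and 3 did not pass the test in LV-*ATF7*. That is 82.4% called against 67.6% of all genes, with a median log2 fold change of 0.87 against 0.00 for all genes tested. *ANKRD1*, whose promoter window is printed above, was at 19.4, 13.1 and 11.9 CPM in LV-NC and 1.17, 0.459 and 0.277 CPM in LV-*ATF7*. It fell by 4.54 on the log2 scale (SE 0.42, adjusted p = 4.71e-05 by edgeR), or 23.2-fold, and rests on 5 to 21 counts per LV-*ATF7* library. *GADD45B*, a stress-induced gene, fell by 2.60 (SE 0.19, adjusted p = 1.36e-05), and *ASAP1*, which encodes a GTPase-activating protein for Arf proteins, fell by 0.86 (SE 0.09, adjusted p = 8.88e-05).

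Targets that rose included genes for secreted factors. *IGFBP3*, which encodes an IGF-binding protein, was at 385.6, 347.7 and 342.2 CPM in LV-NC and 2531, 2665 and 2802 CPM in LV-*ATF7*, a rise of 2.89 on the log2 scale (SE 0.11, adjusted p = 1.27e-06 by edgeR). *FJX1*, a homolog of the fly four-jointed gene, rose by 2.96 (SE 0.27, adjusted p = 4.15e-05). *TGFB2*, which encodes a TGF-beta ligand, rose by 1.80 (SE 0.44, adjusted p = 0.00670), and 26.6% of its exon bases are shared with an overlapping transcript on the same strand. It rests on 51, 22 and 11 counts in LV-NC replicates 1, 2 and 3. LV-NC replicate 1 lay above the mean of LV-NC replicates 2 and 3 for 16 of the 17 targets, against 50.6% of all genes tested. Without that library, 10 of the 17 rose and 5 fell, in a fit that called 80.1% of all genes. Of the 13 of these targets with a promoter window, 6 held the TEAD motif in at least 1 window, where 11.9% of all windows did. The first count is of genes, of which *AXL* had 2 windows, and the second is of windows, so they are not like for like. Of the 6 genes, *ANKRD1* and *PTPN14* fell, and *AXL*, *FOXF2*, *NUAK2* and *TGFB2* rose. The call of *PTPN14* was lost in 3 alternatives. *PTPN14*, *AXL* and *FOXF2* were named after their values were seen.

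**Figure D4:**
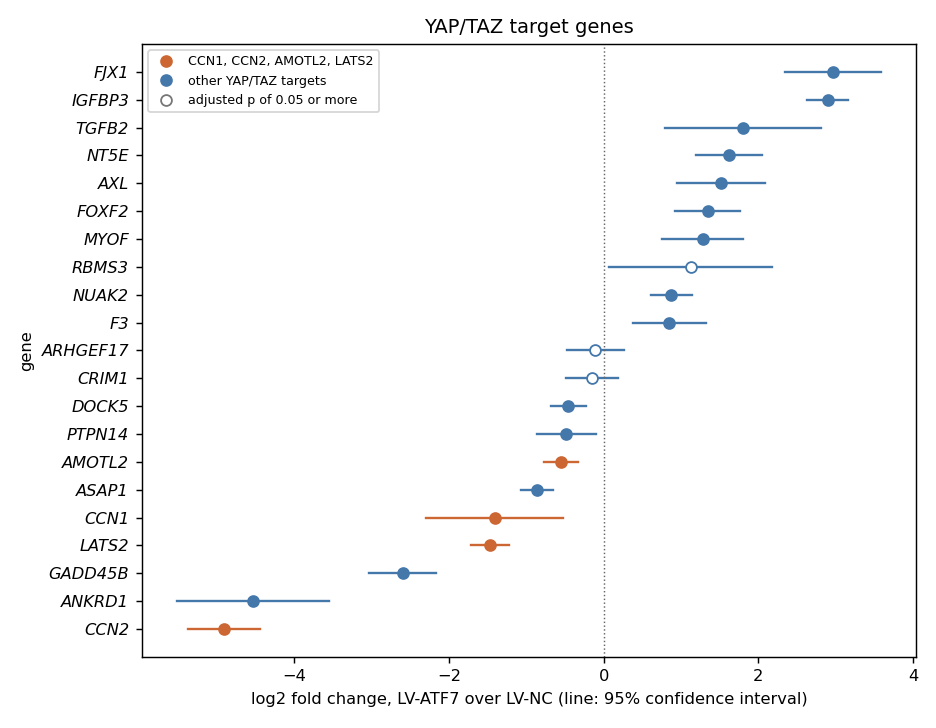
Change in expression in LV-*ATF7* relative to LV-NC (log2) for *CCN1*, *CCN2*, *AMOTL2* and *LATS2* (orange) and for 17 other YAP/TAZ target genes (blue), with 95% confidence intervals; open points did not pass an adjusted p of 0.05. The genes spread from 2.96 for *FJX1* to -4.91 for *CCN2*, on both sides of 0.

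A list of the other Hippo kinases and adaptors, which includes the LATS relatives *STK38* and *STK38L*, was mostly lower. Of 19 genes tested, 12 fell, 3 rose and 4 did not pass, or 78.9% called against 67.6%, with a median log2 fold change of -0.59. The largest falls were those of *STK38L* (-1.38, SE 0.12, adjusted p = 3.45e-05 by edgeR), a kinase related to LATS, *WWC2* (-1.35, SE 0.14, adjusted p = 8.71e-05), of the KIBRA scaffold family, and *MOB1B* (-1.23, SE 0.16, adjusted p = 2.26e-04), a LATS coactivator. The kinases *STK4* and *STK3*, which are the mammalian Hippo kinases, were at -0.89 (adjusted p = 6.94e-05) and -0.59 (adjusted p = 0.00100), their scaffold *SAV1* at -0.59 (adjusted p = 8.31e-04) and the merlin gene *NF2* at -1.16 (adjusted p = 4.28e-05). These 4 genes were named after their values were seen. *MAP4K2* (1.83, SE 0.16, adjusted p = 3.11e-05) and *STK38* (1.02, SE 0.09, adjusted p = 4.17e-05), both kinases, and *WWC3* (1.41, SE 0.18, adjusted p = 2.56e-04) rose. Within the families, *STK38* and *WWC3* rose while *STK38L* and *WWC2* fell. Without LV-NC replicate 1, 5 of the 19 rose and 12 fell, where 80.1% of all genes were called. *WWC2* and *SAV1* share 25.9% and 14.9% of their exon bases with a gene on the opposite strand.

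The STRIPAK complex holds a phosphatase that opposes the Hippo kinases. Of its 15 genes, 7 rose, 6 fell and 2 did not pass, or 86.7% called against 67.6% of all genes, with a median log2 fold change of -0.06. *STK25* rose by 1.05 (SE 0.11, adjusted p = 9.68e-05 by edgeR) and *MOB4* by 0.61, whereas *STRIP2* fell by 1.21, the striatin gene *STRN* by 0.89 (SE 0.11, adjusted p = 1.85e-04) and *FGFR1OP2* by 0.78. The number of rises depended on single libraries and on scaling: 4 rose without LV-NC replicate 2, without LV-NC replicate 3 or without LV-*ATF7* replicate 1, and 3 rose without LV-*ATF7* replicate 2 or with libraries scaled by total count alone, against 6 falls in each of these fits. *MOB4* passed in 9 of 13 alternatives and shares 16.2% of its exon bases with a readthrough gene, and *STK25* shares 14.4% with a gene on the opposite strand.

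Junction and polarity proteins hold YAP and TAZ at the membrane or steer the kinases. Of 16 genes tested, 8 rose, 4 fell and 4 did not pass, or 75% called against 67.6% of all genes, with a median log2 fold change of 0.18. *DLG1*, which encodes a polarity scaffold, rose by 2.01 (SE 0.11, adjusted p = 4.42e-06 by edgeR), *PARD3*, a gene of the Par complex, by 1.61 (SE 0.23, adjusted p = 4.29e-04) and *AMOT*, the angiomotin gene, by 1.25 (SE 0.12, adjusted p = 5.40e-05). *PALS1* and *CRB3*, genes of the Crumbs complex, fell by 1.17 (SE 0.10, adjusted p = 2.69e-05) and 0.59 (SE 0.12, adjusted p = 0.00230), and *LLGL2* by 0.57 (SE 0.09, adjusted p = 8.25e-04). Members of the same complex or family went the other way: *PATJ*, also of the Crumbs complex, rose by 0.57 (SE 0.10, adjusted p = 0.00170), and *LLGL1*, the paralog of *LLGL2*, rose by 0.93 (SE 0.11, adjusted p = 1.78e-04), both named after their values were seen. *AMOT* therefore rose where its paralog *AMOTL2* fell. The paralog *AMOTL1*, named after its values were seen, rose as well, by 0.78 (SE 0.17, adjusted p = 0.00408 by edgeR).

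The VGLL proteins bind TEAD factors at the surface used by YAP and TAZ. *VGLL1* was at 3.96, 2.46 and 3.65 CPM in LV-NC and 33.9, 36.7 and 41.3 CPM in LV-*ATF7*, a rise of 3.47 on the log2 scale (SE 0.20, adjusted p = 4.52e-06 by edgeR), or 11.1-fold. *VGLL3* fell by 1.26 (SE 0.14, adjusted p = 1.29e-04). *VGLL4* was at -0.24 (SE 0.09, adjusted p = 0.0433), a call that was lost in 6 of the 13 alternatives, among them those without LV-NC replicate 3 or any 1 of the 3 LV-*ATF7* libraries, and 23.7% of its exon bases are shared with genes on the opposite strand. Together with *TEAD2*, all 4 genes of this short list passed the test, 2 in each direction, where 67.6% of all genes passed, and 3 of the 4 passed in the 6 alternatives that lost *VGLL4*.

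**Figure D5:**
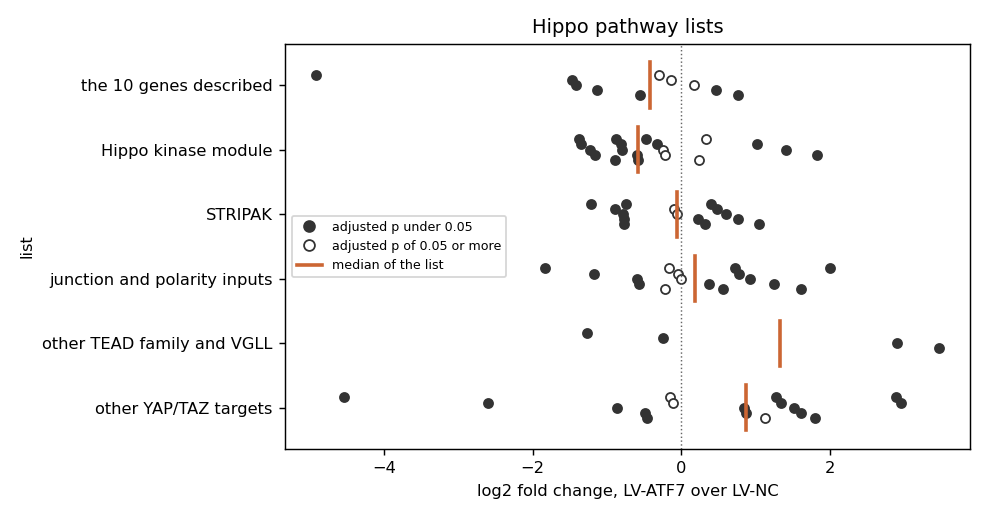
Log2 difference between LV-*ATF7* and LV-NC for every gene tested in the 10 genes described and in 5 lists of the Hippo pathway, with an orange line at the median of each list. Filled points have an adjusted p under 0.05, and the medians run from -0.59 for the Hippo kinase module to 1.33 for *TEAD2* with the VGLL genes.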

How the data were processed

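RNA-seq was made from 6 HaCaT libraries on an Illumina NovaSeq instrument. The authors deposited raw counts per gene for 12499 genes, beside FPKM values that the authors normalized by length and depth, and columns with fold changes, p-values and adjusted p-values that the authors computed between the groups, which were not used. The submitters' processing notes name the build GRCh38. The aligner, counting program, annotation and strandedness are not given in the sources used here.

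Groups were taken from the deposited labels. Counts were scaled by TMM, filtered with filterByExpr and compared between groups in edgeR 4.0.16 under R 4.3.3 (functions glmQLFit, glmQLFTest), without covariates, with Benjamini-Hochberg adjustment over 12462 genes and a threshold of 0.05. The standard error is the log2 fold change divided by the square root of F, and expression is TMM-normalized CPM as mean ± SD. Ratios within a library used counts plus 0.5, and shares of the TEAD family used counts per kb of exon (GENCODE release 29, GRCh38). Gene positions are from GENCODE and promoter windows from RefSeq, GRCh38.p14. Ratios and shares were compared by exact permutation. The script was tested on simulated data. The fit was repeated with each library left out, with the replicate number as a blocking term, without the filter, with a minimum of 10 counts per library, with scaling by total count or by upper quartile, and with limma 3.58.1 (voom, quality weights) and DESeq2 1.42.0.

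The 10 genes and the pathway lists were chosen with earlier results of these data known. Named in each list were up to 3 genes called higher and 3 called lower with the largest change and a mean of at least 50 counts. A gene that this rule names is not reported here, and listed genes without values were not analyzed here. Averaged over genes, libraries of a group differed by more than counting error alone gives (chi-square per gene of 2.86 to 76.2). This need not hold for each gene and was not compared gene by gene. Relative counting error is larger for genes with few counts, such as *CCN2* in LV-*ATF7*.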

Additional observations from a re-analysis of the deposited data

How the results depend on the processing

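*TEAD1*, *TEAD3*, *LATS2*, *CCN2* and *AMOTL2* passed the test in the same direction under each of the 13 alternatives, and no direction among the 10 genes reversed. With libraries scaled by total count alone, which shifted all genes by a median of -0.16 on the log2 scale, *YAP1* was at 0.30 and did not pass, and *TEAD4* (-0.30) and *LATS1* (-0.46) passed. In that fit *WWTR1* was at 0.0064. In limma voom, *WWTR1* (0.25) and *TEAD4* (-0.26) passed. Over the 6 fits that each left out a library, *WWTR1* ran from 0.10 to 0.22, *TEAD4* from -0.28 to -0.10, *LATS1* from -0.45 to -0.16 and *CCN1* from -1.71 to -0.75, and the number of the 10 genes called from 6 to 9, with 9 when LV-NC replicate 1 was left out, while the number of all genes called ran from 7290 to 10011, the highest also without that library. The causes were not tested. The difference in TEAD share from the deposited FPKM was -23.3 percentage points for *TEAD1*, 3.14 for *TEAD2*, 21.9 for *TEAD3* and -1.69 for *TEAD4*, against -21.5, 5.47, 18.6 and -2.57 from counts per kb of exon. Deviations from the group means correlated at 0.058, -0.021 and 0.065 for replicates 1, 2 and 3, so no pairing by replicate number was seen. The labels do not state that equal numbers mark matched cultures, so these correlations cannot decide on a pairing of cultures. With the replicate block, 8210 of all genes were called against 8429, and the call of none of the 10 genes changed.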

Other observations

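*CCN1* and *CCN2* also respond to serum response factor (SRF), so a list of SRF, its cofactors and actin cytoskeleton genes was read beside them. Of 15 genes tested, 8 rose, 4 fell and 3 did not pass in LV-*ATF7*, or 80% called against 67.6% of all genes tested, with a median log2 fold change of 0.37. *TPM2*, a tropomyosin gene, rose by 3.09 (SE 0.28, adjusted p = 4.35e-05 by edgeR), *MYL9*, a myosin light chain gene, by 2.70 (SE 0.29, adjusted p = 9.61e-05) and the SRF cofactor gene *MRTFB* by 1.23 (SE 0.11, adjusted p = 3.78e-05). *TPM2* and *MYL9* had few counts in LV-NC, 18 to 43 and 10 to 22 per library. *TAGLN*, which encodes an actin-binding protein, fell by 1.93 (SE 0.17, adjusted p = 3.45e-05), the filamin gene *FLNA* by 1.001 (SE 0.21, adjusted p = 0.00334) and the vinculin gene *VCL* by 0.61 (SE 0.14, adjusted p = 0.00516). *SRF* itself, named after its values were seen, was at -0.22 (adjusted p = 0.0746) and passed in 4 of 13 alternatives. *TAGLN* and *VCL* share 11.4% and 11.1% of their exon bases with a gene on the opposite strand.

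LV-NC replicate 1 differed from LV-NC replicates 2 and 3 along the target list. Its value over their mean had a median of 1.45 for the 17 other YAP/TAZ targets, 1.14 for the 10 genes and 1.0 for all genes tested. It was 2.80 for *CCN1* but 0.838 for *CCN2* and 0.937 for *AMOTL2*, so the 3 classical targets did not move together in that library. This was noticed after the values were seen and was not tested.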
